A study of Cavia porcellus with 10 samples.

Results

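RAB proteins are small GTPases that mark the membranes of the cell and steer vesicles between them. Each RAB binds the membrane through lipid tails, is switched on by an exchange factor that loads GTP, recruits effectors such as tethers and motors, and is switched off by a GTPase-activating protein, after which it is taken back into the cytosol. In fibroblasts of connective tissue they carry newly made matrix proteins from the endoplasmic reticulum through the Golgi to the surface, and bring receptors and integrins back from endosomes. The RAB genes described here are all lines of the scleral count table whose symbol is RAB followed by a number and at most a short suffix, without RAB interactors such as Rab3ip and Rab5if. There were 59 such genes among 17642 lines that carry a symbol, on 60 lines, because RAB3C stood on 2 lines and the line with the higher mean was taken. Of the 59 genes, 56 had enough reads to be tested, out of 14683 genes tested in all. Symbols are spelled as in the table, which mixes upper and lower case.

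The libraries came from scleral tissue, the collagen-rich outer wall of the eye, of guinea pigs, all male and 2 to 3 weeks old. In the myopia group both eyes wore lenses that induce nearsightedness, and the control group was left untreated. Both groups hold 5 libraries, and a library stands for a single eye. The labels name no strain, lens power or batch, so a batch that ran with group could not be told apart from myopia. They also leave unsaid whether 2 eyes came from the same animal, and the p-values therefore rest on the spread among these eyes. Whole tissue was used, so fewer cells of a type and less RNA per cell cannot be told apart.

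Total counts lay between 32309258 and 35430797 per library. Libraries were compared in CPM, read counts scaled to the size of the library, after adjustment with TMM factors, which assume that most genes do not differ. Here 71.9% of all genes tested were called different, so that assumption is in doubt, and directions on this scale depend on it. The factors lay apart by group, from 0.777 to 0.968 in control libraries and from 1.11 to 1.25 in myopia libraries. Over all genes the first principal component held 77.1% of the variance, and control libraries 4 and 5, at -49.7 and -24.6, lay nearer to the myopia libraries (61.5 to 72.5) than did control libraries 1 to 3 (-94.6 to -81.5). The counts of called RAB genes and of paralog pairs are therefore also given without those 2 libraries. All 14 fibroblast markers were found in the table and went both ways, where 36.9% of all genes were higher and 35.1% lower. The 4 higher were DCN, PDGFRA, KERA and OGN, the 5 lower were COL1A1, Col3a1, THY1, VIM and Fmod, and 5 did not pass. The summed level of all 14 was 131500 to 163300 CPM in control and 75680 to 104100 CPM in myopia. COL1A1 alone had means of 82710 and 35550 CPM. Red blood cell markers summed to 2504 to 10560 CPM in control and to 100.1 to 455.8 CPM in myopia, the leukocyte markers to 509.7 to 739.1 and 217.0 to 292.3 CPM, and neither list had a marker at 0 in every library. The part of these cells in the RAB results was not tested.

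RAB genes moved both ways in the myopic sclera. In 8 of 20 pairs of close paralogs the members were called in opposite directions, against 22.6% of pairs of other letter paralogs. This comparison was added after the data were seen, and the pairs are not independent. Rab3c, with 0 to 23 reads per control library, stands in the opposite pairs with RAB3A, RAB3B and Rab3d. It passed the filter for low counts on its 31 to 115 reads per myopia library, so its pairs do not support the comparison. The call of RAB27A, in another of them, did not hold in every alternative. Of the 56 genes tested, 19 were higher in myopia, 23 were lower and 14 did not pass an adjusted p of 0.05 in the edgeR quasi-likelihood test. Over all genes tested, 36.9% were higher and 35.1% lower, so that the 33.9% and 41.1% of the RAB genes lay near that background. The median log2 fold change was -0.16 for the RAB genes and 0.03 for all genes. With scaling by total count the RAB median turned to 0.29 and that of all genes moved to 0.47, so the distance between them was -0.19 with TMM factors and -0.18 with total counts. On that scale 25 RAB genes were higher and 15 lower, against 52.0% and 18.7% of all genes. The 19 genes called higher stayed higher there, and 15 of the 23 called lower stayed lower. Without control libraries 4 and 5, 20 of 57 were higher and 24 lower, against 38.3% and 34.7% of all genes. All 42 calls kept their direction without these 2 libraries, and RAB44 joined the lower genes. As these 2 were left out for lying nearest to myopia, that is no independent check of the calls. RAB39A joined the higher genes only because the filter asks for fewer libraries when a group is smaller. It passed the filter on its 7 to 25 reads per myopia library, against 0 to 1 per control library.

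**Figure D1:**
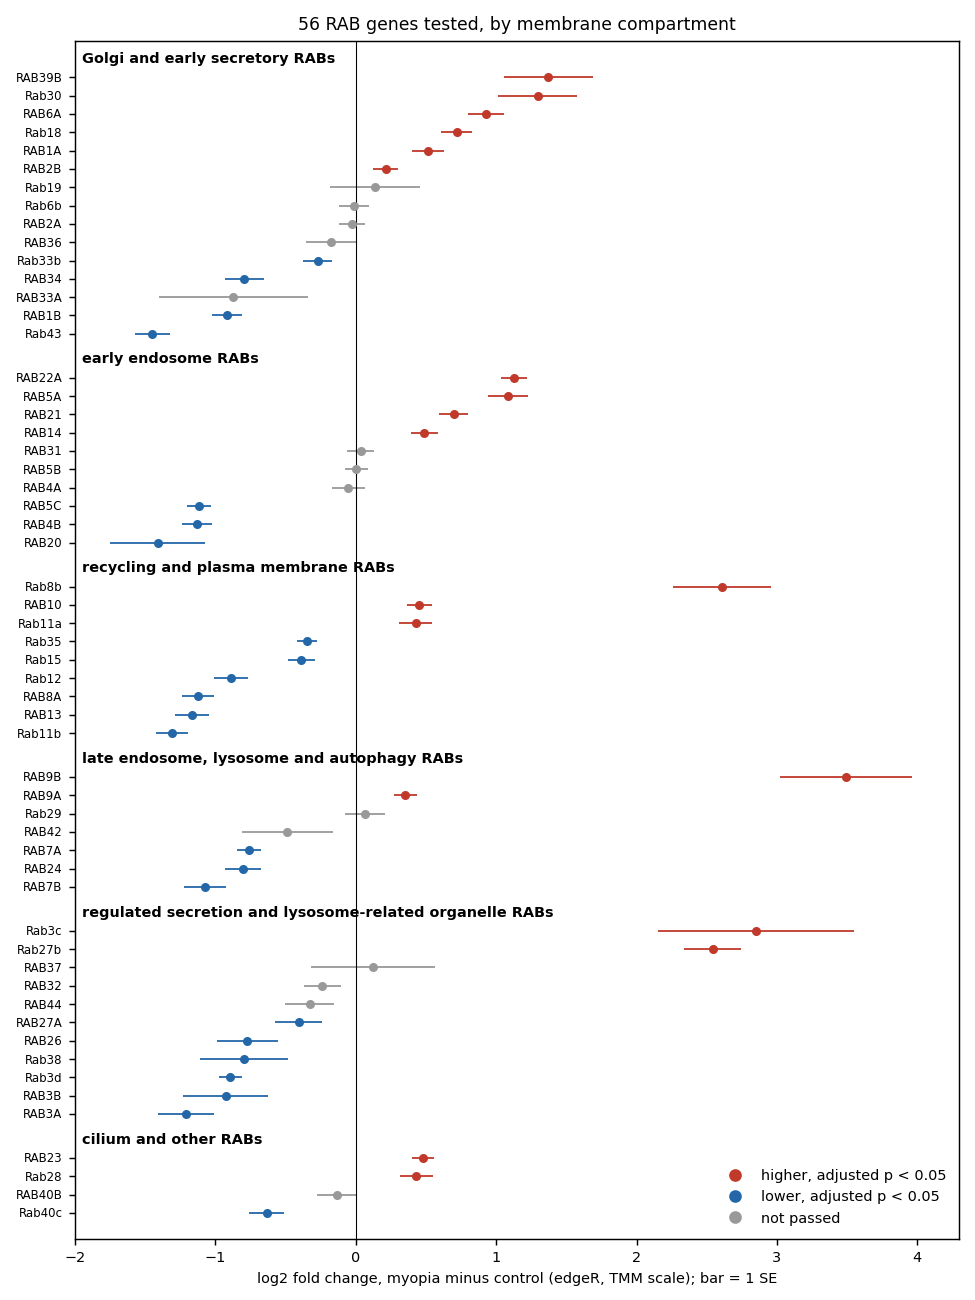
Log2 fold change of each of the 56 tested RAB genes, myopia minus control, with a bar of 1 standard error, ordered within membrane compartments. Red points are the 19 genes called higher, blue points the 23 called lower and grey points the 14 that did not pass; every compartment holds red and blue points.

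Sizes were modest for most members and large for a few. When called genes also had to reach a log2 fold change of 1 in size, 8 RAB genes were higher and 9 lower, where 19.6% and 12.6% of all genes were. The 5 myopia libraries all lay above the 5 control libraries for 16 members and all below for 19, where 29.8% and 28.0% of all genes did so, 57.8% in either direction. The reads of all 59 members together took 0.292 ± 0.0171% of each control library and 0.341 ± 0.0107% of each myopia library (mean ± SD, n = 5), and on the TMM scale they summed to 3407 ± 118 and 2919 ± 90.4 CPM. The direction of the summed level thus depends on the scaling, while the make-up of the family does not. The 19 genes called higher took 19.7, 20.1, 20.9, 25.5 and 28.5% of the family's reads in control libraries 1 to 5 and 40.3 to 42.1% in the myopia libraries, a description of genes chosen by this contrast. RAB7A alone went from 9.96 ± 0.51% of the family's reads to 6.89 ± 0.30%, and RAB1A from 4.39 ± 0.86% to 7.28 ± 0.36%. Reads were not divided by transcript length, so levels are compared between libraries and not between genes.

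Of 15 tested RABs of the Golgi and the early secretory pathway, 6 were higher, 4 lower and 5 did not pass (8 higher and 3 lower with total-count scaling). Of all genes tested 36.9% were higher and 35.1% lower (52.0% and 18.7% with total-count scaling). The share called either way was 66.7% here, near the 71.9% of all genes. RAB1A and RAB1B, which act between the endoplasmic reticulum and the Golgi, parted. RAB1A stood at 136, 130, 127, 170 and 182 CPM in control libraries 1 to 5 and at 207, 223, 226, 189 and 219 CPM in myopia libraries 1 to 5, a log2 fold change of 0.52 ± 0.11 (SE; adjusted p = 0.00105). Its control libraries 4 and 5 lay between the others and the myopia group, and the groups did not overlap. RAB1B stood at 307, 319, 304, 253 and 220 CPM in control and at 151, 146, 154, 140 and 152 CPM in myopia, a log2 fold change of -0.92 ± 0.11 (adjusted p = 5.55e-06). Here every myopia library lay below every control library, the opposite of RAB1A.

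RAB6A, the main RAB of the trans-Golgi and of transport from endosomes and back to the endoplasmic reticulum, was higher. Its values were 45.6, 48.6, 44.5, 61.1 and 72.3 CPM in control and 110, 97.7, 113, 98.6 and 98.2 CPM in myopia (log2 fold change 0.93 ± 0.13, adjusted p = 2.79e-05). Its paralog Rab6b, known mainly from neurons, did not pass (called higher at 0.43 with total-count scaling), at 25.0 to 35.9 CPM in control and 27.6 to 33.8 CPM in myopia. Rab18, which acts at the endoplasmic reticulum and lipid droplets, stood at 85.5, 80.6, 80.1, 95.4 and 110 CPM in control and at 140, 159, 167, 123 and 155 CPM in myopia (log2 fold change 0.72 ± 0.11, adjusted p = 6.30e-05). The myopia libraries of RAB6A and Rab18 all lay above control.

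Rab43, a Golgi RAB, had the lowest log2 fold change of all tested members, -1.45 ± 0.12 (adjusted p = 6.55e-07). It stood at 44.2, 37.7, 40.4, 35.1 and 26.8 CPM in control and at 13.7, 13.3, 14.5, 13.1 and 12.7 CPM in myopia, so the myopia libraries were narrow and well below every control library. RAB34, a RAB of the Golgi region that is also needed to form cilia, fell by 0.79 ± 0.14 on the log2 scale. Rab30 and RAB39B, present at low counts, were higher. Rab30, a Golgi RAB, stood at 0.986, 1.13, 2.25, 2.36 and 2.54 CPM in control and at 4.96, 4.23, 4.88, 5.39 and 3.40 CPM in myopia (log2 fold change 1.30 ± 0.28, adjusted p = 0.000955). RAB39B stood at 0.513, 1.41, 1.26, 1.67 and 1.99 CPM in control and at 4.42, 2.59, 4.46, 2.79 and 3.55 CPM in myopia (1.37 ± 0.32, adjusted p = 0.00155). For these low genes the control libraries differ several-fold among themselves, and the groups still did not overlap. The paralog RAB39A was not tested: it had 3 reads over all control libraries and 75 over all myopia libraries.

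RAB2A and RAB2B, Golgi RABs that also act in autophagy, had small differences. RAB2A did not pass, at -0.03 ± 0.09 (adjusted p = 0.801), and was called higher at 0.41 with total-count scaling. RAB2B rose by 0.21 ± 0.09 (adjusted p = 0.0461), with groups that overlapped, and its call ended without any of 7 of the 10 libraries: control 1, 2 or 3 or myopia 1, 2, 3 or 5, with an adjusted p of 0.0517 to 0.112. DESeq2 did not call it either (adjusted p = 0.0619). Rab33b, a Golgi RAB linked to autophagosome formation, fell by 0.27 ± 0.10 (adjusted p = 0.0273), had 0.18 with total-count scaling, and did not pass without control 1, 3 or 4 or myopia 4 or 5 (adjusted p of 0.0504 to 0.0854). The other 3, RAB36, Rab19 and RAB33A, did not pass, the last 2 at means under 2 CPM in each group.

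Early endosome RABs also went both ways. Of 10 tested RABs 4 were higher, 3 lower and 3 did not pass (7 higher and 3 lower with total-count scaling). Of all genes tested 36.9% were higher and 35.1% lower (52.0% and 18.7% with total-count scaling). The share called either way was 70.0% here, near the 71.9% of all genes. The RAB5 paralogs all drive the fusion of early endosomes, and here each went its own way. RAB5A stood at 26.5, 27.7, 28.1, 34.6 and 45.4 CPM in control and at 68.3, 62.5, 80.02, 65.3 and 68.7 CPM in myopia, a log2 fold change of 1.09 ± 0.14 (adjusted p = 1.48e-05). RAB5C stood at 219, 208, 204, 177 and 172 CPM in control and at 92.7, 86.0, 93.0, 91.7 and 88.4 CPM in myopia, a log2 fold change of -1.12 ± 0.09 (adjusted p = 3.82e-07). Neither overlapped between the groups, in opposite directions. RAB5B, at 227, 241, 233, 252 and 272 CPM in control and 247, 245, 256, 251 and 230 CPM in myopia, did not pass (0.005 ± 0.081, adjusted p = 0.963), and with total-count scaling it was called higher at 0.45.

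Of RAB4A and RAB4B, RABs of fast recycling from early endosomes, only RAB4B was called. RAB4B fell by 1.13 ± 0.11 (adjusted p = 1.16e-06), from 72.6, 76.2, 71.3, 55.5 and 55.9 CPM to 30.1, 27.4, 31.0, 31.3 and 31.6 CPM. RAB4A did not pass, at -0.05 ± 0.12 (adjusted p = 0.699), and was called higher at 0.40 with total-count scaling. RAB22A, which acts in sorting from early endosomes, rose from 34.6, 37.9, 33.3, 41.2 and 42.8 CPM to 89.1, 88.8, 83.3, 75.8 and 78.1 CPM (1.13 ± 0.09, adjusted p = 5.34e-07), and its control libraries 4 and 5 stood only a little above the other controls. Its close relative RAB31, called higher at 0.47 with total-count scaling, did not pass at 136 to 173 CPM in control and 139 to 173 CPM in myopia. RAB21, which binds integrins and carries them through endosomes, and RAB14, which acts between the Golgi and endosomes, rose by 0.70 ± 0.10 and 0.49 ± 0.10. RAB20, linked to phagosome maturation and known as responsive to hypoxia, stood at 6.43, 8.56, 3.62, 4.33 and 3.76 CPM in control and at 2.34, 3.15, 2.13, 0.906 and 1.501 CPM in myopia (-1.41 ± 0.34, adjusted p = 0.00198). The groups of RAB20 did not overlap, though the lowest control and the highest myopia library lay close together.

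Of 9 tested RABs of recycling and of traffic to the plasma membrane 3 were higher and 6 lower, where 36.9% of all genes were higher and 35.1% lower. The share called either way was 100% of these few genes, against 71.9% of all genes. With total-count scaling 3 were higher and 4 lower, against 52.0% and 18.7% of all genes. RAB11A marks the recycling endosome, and its paralog RAB11B shares that compartment. Rab11a stood at 60.1, 62.0, 64.2, 73.6 and 95.6 CPM in control and at 102, 90.0, 94.6, 96.2 and 94.8 CPM in myopia (0.43 ± 0.12, adjusted p = 0.00571). Control library 5 lay among the myopia libraries, so the groups overlapped; without control libraries 4 and 5 the value was 0.63. Rab11b stood at 192, 192, 181, 146 and 126 CPM in control and at 70.3, 66.1, 70.9, 63.8 and 66.7 CPM in myopia (-1.31 ± 0.12, adjusted p = 8.63e-07), with every myopia library below every control library.

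RAB8A, RAB8B, RAB10 and RAB13 form a related branch that delivers vesicles to the plasma membrane and, for RAB8, to the cilium. RAB8A stood at 122, 124, 115, 93.2 and 84.3 CPM in control and at 50.9, 48.4, 48.4, 46.4 and 53.1 CPM in myopia (-1.12 ± 0.11, adjusted p = 1.75e-06). Rab8b stood at 0.473, 0.564, 1.09, 1.05 and 2.12 CPM in control and at 6.91, 4.65, 8.54, 6.64 and 6.003 CPM in myopia (2.61 ± 0.35, adjusted p = 1.82e-05). Neither gene overlapped between the groups, and the directions were opposite. Without control libraries 4 and 5 the value of Rab8b was 3.20. RAB10 stood at 70.4, 72.9, 83.7, 83.7 and 93.0 CPM in control and at 116, 105, 114, 108 and 110 CPM in myopia (0.45 ± 0.09, adjusted p = 0.000431). RAB13, which acts at cell junctions and in recycling, stood at 190, 196, 167, 137 and 129 CPM in control and at 70.9, 78.7, 70.5, 67.7 and 76.7 CPM in myopia (-1.17 ± 0.12, adjusted p = 2.27e-06). Neither RAB10 nor RAB13 overlapped between groups. Rab12, linked to the breakdown of recycling receptors, fell by 0.89 ± 0.12. The falls of Rab15 and Rab35, of 0.39 ± 0.10 and 0.35 ± 0.07, turned to 0.06 and 0.10 with total-count scaling. RAB17 and RAB25, known from epithelia, were not tested, with 11 and 10 reads over all control libraries and 9 and 27 over all myopia libraries.

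**Figure D2:**
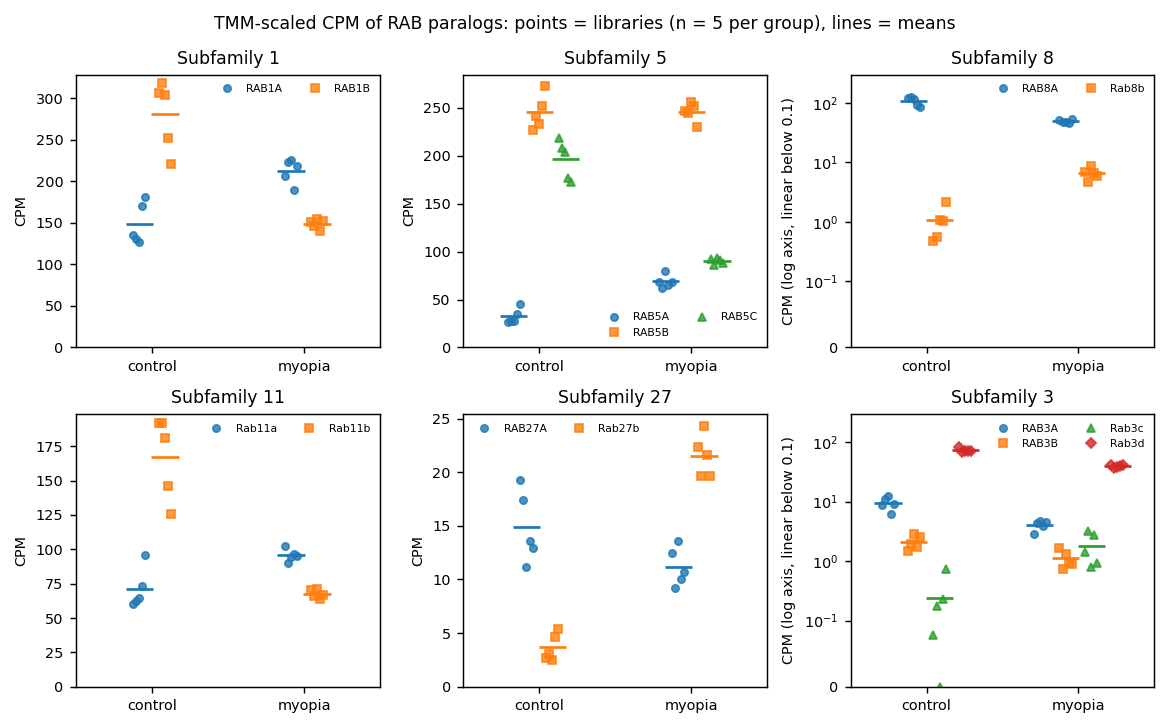
TMM-scaled CPM of each library for the paralogs of the RAB1, RAB5, RAB8, RAB11, RAB27 and RAB3 subfamilies, in which members were called in opposite directions; points are libraries (5 per group) and lines are group means, and the panels of the RAB8 and RAB3 subfamilies have a log axis that is linear below 0.1 CPM. RAB1A, RAB5A, Rab8b, Rab11a, Rab27b and Rab3c are higher in myopia, and their partners RAB1B, RAB5C, RAB8A, Rab11b, RAB27A and Rab3d are lower.

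Late endosomes, lysosomes and autophagy were represented by 7 tested RABs. Of these 2 were higher, 3 lower and 2 did not pass (3 higher and 3 lower with total-count scaling). Of all genes tested 36.9% were higher and 35.1% lower (52.0% and 18.7% with total-count scaling). The share called either way was 71.4% here, near the 71.9% of all genes. RAB7A, the RAB of late endosomes and lysosomes, stood at 375, 362, 337, 309 and 316 CPM in control and at 208, 196, 199, 204 and 197 CPM in myopia (-0.76 ± 0.08, adjusted p = 3.78e-06), with no overlap. RAB7B and RAB24, the latter linked to autophagy, fell by 1.08 ± 0.15 and 0.80 ± 0.13. RAB9A and RAB9B, which return receptors from late endosomes to the trans-Golgi, were higher by 0.35 ± 0.08 and 3.49 ± 0.47. RAB9B had the highest log2 fold change of the family but few reads, 1 to 7 per control library and 31 to 70 per myopia library. It passed the filter through the myopia libraries. Rab29 and RAB42 did not pass, and Rab29 was called higher at 0.51 with total-count scaling. RAB7B is known mainly from monocytes and dendritic cells, and 9 of 12 tested leukocyte markers were lower and 1 higher (median -1.52 on the log2 scale), where 35.1% of all genes were lower and 36.9% higher. Their part in the RAB7B result was not tested.

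Among 11 tested RABs of regulated secretion and lysosome-related organelles, 2 were higher, 6 lower and 3 did not pass, where 36.9% of all genes were higher and 35.1% lower. With total-count scaling 2 were higher and 2 lower, against 52.0% and 18.7% of all genes. Without control libraries 4 and 5 there were 2 and 7, against 38.3% and 34.7%. RAB27A and RAB27B dock secretory lysosomes and exosome-bearing endosomes at the plasma membrane. Rab27b stood at 2.72, 3.10, 2.53, 4.59 and 5.43 CPM in control and at 22.3, 19.7, 24.4, 21.6 and 19.6 CPM in myopia (2.54 ± 0.20, adjusted p = 4.28e-07). It was 5.86-fold higher by group means, and its lowest myopia library lay far above its highest control library. RAB27A stood at 19.3, 17.4, 11.1, 13.6 and 12.9 CPM in control and at 12.5, 9.21, 13.6, 10.1 and 10.7 CPM in myopia (-0.41 ± 0.17, adjusted p = 0.0406). The groups of RAB27A overlapped, and its call ended without control 1, 2 or 4 or myopia 2, 4 or 5, with an adjusted p of 0.0512 to 0.133; with total-count scaling the value was 0.05.

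The RAB3 subfamily serves regulated exocytosis, RAB3A and RAB3C mainly at synapses. RAB3A stood at 8.91, 10.99, 12.4, 6.33 and 9.09 CPM in control and at 2.91, 4.45, 4.82, 3.92 and 4.502 CPM in myopia (-1.21 ± 0.20, adjusted p = 0.000112). Rab3d, found in secretory cells outside the nervous system, stood at 83.8, 69.2, 69.8, 72.5 and 70.2 CPM in control and at 40.7, 36.8, 38.9, 39.7 and 40.6 CPM in myopia (-0.89 ± 0.08, adjusted p = 8.80e-07). In RAB3A and Rab3d the groups did not overlap. RAB3B stood at 1.46, 1.97, 2.87, 1.74 and 2.54 CPM in control and at 1.66, 0.733, 1.31, 0.955 and 0.895 CPM in myopia (-0.93 ± 0.30, adjusted p = 0.0135), with overlap. Rab3c went the other way, from 0.0789, 0.176, 0, 0.230 and 0.739 CPM to 1.40, 3.24, 0.795, 2.74 and 0.948 CPM (2.85 ± 0.70, adjusted p = 0.00235). It rests on 0 to 23 reads per control library and 31 to 115 per myopia library, and its value was 4.39 without control libraries 4 and 5. Rab3c passed the filter through its myopia libraries. Of 10 tested neuron markers 5 were lower and 1 higher (35.1% and 36.9% of all genes). With total-count scaling 1 was lower and 2 higher (18.7% and 52.0% of all genes). All 11 in the table summed to 293.2 to 377.4 CPM in control and 201.8 to 250.7 CPM in myopia, with none at 0 in every library. Their part in the RAB3 results was not tested.

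RAB32 and RAB38 serve the organelles that make pigment, with RAB27A, which carries them along actin. Rab38 stood at 7.93, 7.89, 3.79, 6.23 and 3.76 CPM in control and at 2.18, 2.93, 6.26, 3.06 and 2.58 CPM in myopia (-0.80 ± 0.32, adjusted p = 0.0361). Myopia library 3 lay within the control range, and the call ended without control 1, 2 or 4 or myopia 1, 2, 4 or 5, with an adjusted p of 0.0660 to 0.0973. It did not pass with total-count scaling either (-0.33, adjusted p = 0.354). RAB32 did not pass, and was also highest in myopia library 3 of its group, at 18.1 CPM against 12.7 to 14.2 CPM. Without that library it was called lower (-0.34, adjusted p = 0.0230). The 11 melanocyte markers summed to 464.5, 354.6, 168.0, 208.5 and 158.6 CPM in control and to 60.1, 62.3, 241.9, 97.5 and 106.1 CPM in myopia, so myopia library 3 stood highest of its group for these as well, and none of the markers was at 0 in every library. Of the 11, 6 were lower and 2 higher (35.1% and 36.9% of all genes). With total-count scaling 3 were lower and 4 higher (18.7% and 52.0% of all genes). The part of pigment cells in the values of RAB27A, RAB32 and Rab38 was not tested. RAB26 and RAB3B, called lower, did not pass with total-count scaling. RAB44 and RAB37 did not pass; RAB44 was called lower without control 5 (-0.43, adjusted p = 0.0181).

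Of the remaining 4 members, RAB23, which restrains Hedgehog signalling, and Rab28, which acts at the cilium, rose by 0.48 ± 0.08 and 0.43 ± 0.12. Rab40c, of a branch that serves ubiquitin ligases, fell by 0.63 ± 0.12, and it did not pass with total-count scaling (-0.18). RAB40B did not pass. RAB23 stood at 28.9, 29.8, 27.4, 27.8 and 32.4 CPM in control and at 40.6, 42.1, 39.5, 42.2 and 39.6 CPM in myopia, so that here control libraries 4 and 5 did not lean towards myopia as a pair.

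**Figure D3:**
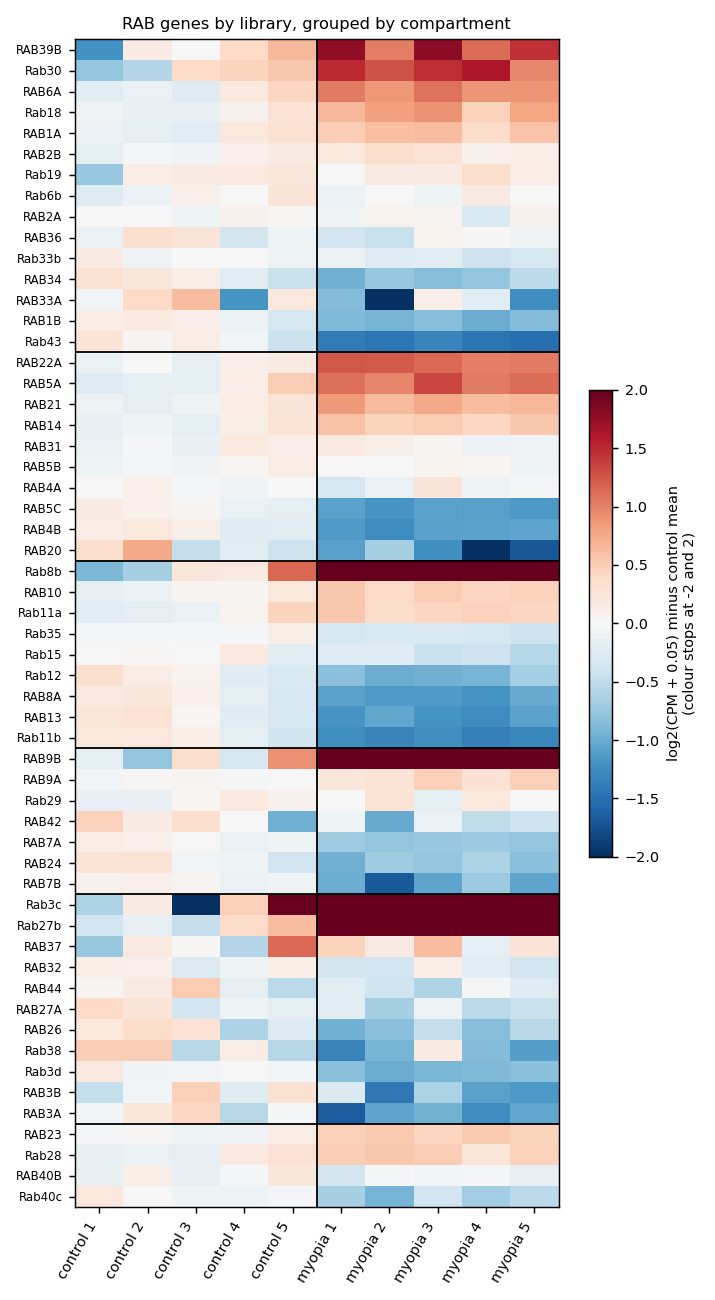
Log2(CPM + 0.05) of the 56 tested RAB genes in each library, minus the mean of the control libraries, with colours stopping at -2 and 2; blocks from top to bottom are Golgi and early secretory, early endosome, recycling and plasma membrane, late endosome and lysosome, regulated secretion, and cilium and other RABs. The myopia columns resemble each other, and control libraries 4 and 5 are shaded towards the myopia columns in many but not all genes.

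The lean of control libraries 4 and 5 can be counted. Of the 19 RAB genes called higher, 15 had these 2 as the highest control libraries (78.9%, against 55.0% of all genes called higher). Of the 23 called lower, 13 had them as the lowest (56.5%, against 61.2%). Genes without this lean include RAB9A, RAB23 and Rab8b among those higher and Rab3d, RAB3A and Rab35 among those lower.

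The ratio of paralogs within a library does not depend on the scaling factor, apart from the 0.05 added to CPM. That addition weighs at very low CPM, as in the pairs with Rab3c or RAB9B. Both genes passed the filter through their myopia libraries, where they are high. Their pairs therefore lend no independent support to the counts and p-values below. Ratios were taken for all 20 pairs of tested RAB genes that share a number and differ in the letter, 13 subfamilies in all, a comparison added after the data were seen. Pairs of a subfamily share members and are not independent. The groups did not overlap for 14 of 20 pairs (70.0%; 15 pairs without control libraries 4 and 5), against 51.9% of 659 pairs of other genes whose symbols share a stem and differ in the letter. In exact permutation tests over libraries, two-sided, 16 pairs had an adjusted p under 0.05 over the 20, and the 14 without overlap had 0.00794, the smallest p that 5 against 5 can give, or 0.0113 after adjustment. The 8 pairs with opposite calls came from 6 subfamilies. Among the 659 other pairs 149 had opposite calls. With total-count scaling the counts were 8 and 89 pairs, the 8 not being the same throughout since RAB27A and RAB3B lost their calls, and without control libraries 4 and 5 they were 8 and 150.

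Within libraries, log2 RAB1A over RAB1B went from -0.92 ± 0.46 in control to 0.52 ± 0.08 in myopia (mean ± SD, n = 5), a 2.70-fold turn in the ratio. For Rab11a over Rab11b it went from -1.24 ± 0.54 to 0.50 ± 0.07, a 3.33-fold turn. The ratio of RAB5A to RAB5C went from -2.62 ± 0.47 to -0.39 ± 0.11, a 4.67-fold turn. In each of these the myopia libraries were narrower than the control libraries, among which libraries 4 and 5 lay nearest to myopia. The ratio of RAB8A to Rab8b fell 14.3-fold, from 6.77 ± 1.04 to 2.93 ± 0.33, and that of RAB27A to Rab27b fell 7.92-fold, from 2.04 ± 0.64 to -0.95 ± 0.13. The paralogs RAB3A and RAB3B (p = 0.476, exact permutation test), RAB3A and Rab3d (p = 0.230), RAB3B and Rab3d (p = 0.929) and RAB33A and Rab33b (p = 0.302) were the pairs whose ratio did not pass.

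**Figure D4:**
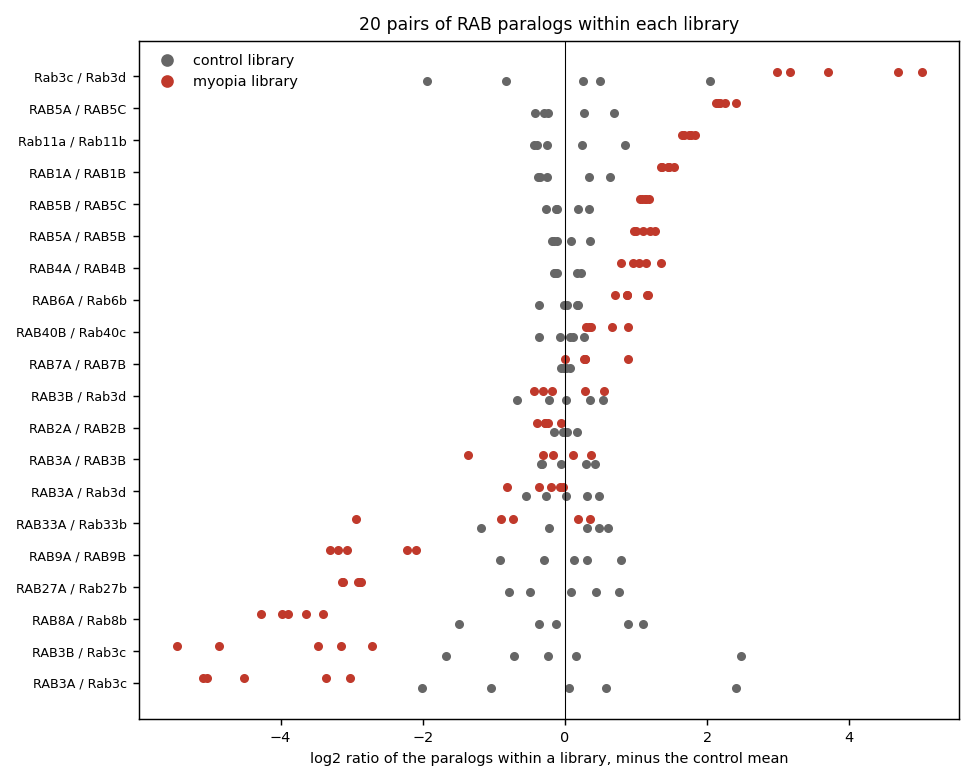
Log2 ratio of 2 RAB paralogs within each library, shown relative to the control mean of that pair, for 20 pairs; grey points are control and red points myopia libraries. The red points lie wholly outside the grey points for 14 pairs, to the right where the first-named paralog gained and to the left where the second did.

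The proteins that load, activate, stop and use RABs were counted from lists of factors linked to these steps. A place on a list does not show that a protein has that activity. Among 21 prenylation and recycling factors 8 were higher and 11 lower (9 and 5 with total-count scaling), with a median log2 fold change of -0.42. Of all genes tested 36.9% were higher and 35.1% lower (52.0% and 18.7% with total-count scaling), with a median of 0.03. CHML and CHM, the escort proteins that present new RABs for lipid attachment, rose from 0.771 ± 0.477 to 17.5 ± 2.27 CPM and from 6.39 ± 1.30 to 19.0 ± 2.33 CPM (mean ± SD, n = 5), log2 fold changes of 4.47 ± 0.31 and 1.57 ± 0.15 (SE). RABAC1, a membrane protein that receives prenylated RABs, and YIF1B, a Golgi membrane protein of the family that binds RABs, fell with log2 fold changes of -1.49 ± 0.14 and -1.35 ± 0.10. Further genes were picked after their values were seen. The 2 subunits of the transferase that attaches the lipids went apart, RABGGTB rising by 0.87 ± 0.11 and RABGGTA falling by 0.57 ± 0.11.

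Exchange factors were higher in 28 of 56 cases and lower in 17, with a median of 0.25. With total-count scaling 38 were higher and 10 lower, and without control libraries 4 and 5 there were 30 and 18. Of all genes tested 36.9% were higher and 35.1% lower, with a median of 0.03. Their shares were 52.0% and 18.7% with total-count scaling, and 38.3% and 34.7% without control libraries 4 and 5. TRAPPC11, a subunit of a TRAPP complex that activates RAB1, rose by 2.01 ± 0.18, while TRAPPC5, a small core subunit of the TRAPP complexes, fell by 1.45 ± 0.12. FNIP1, a partner of folliculin, and C9orf72, a DENN-domain protein that works with SMCR8, rose by 1.40 ± 0.11 and 2.19 ± 0.20. Of the MON1 paralogs, named after their values were seen, which help to activate RAB7, MON1A fell by 1.03 ± 0.12 and Mon1b rose by 0.35 ± 0.11. GTPase-activating proteins were higher in 17 of 41 cases and lower in 16 (21 and 7 with total-count scaling), with a median of 0.07. TBC1D8B, TBC1D15 and TBC1D23, of the TBC domain family, rose by 1.99 ± 0.15, 1.54 ± 0.14 and 1.49 ± 0.10, and TBC1D9B fell by 1.02 ± 0.10.

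Effectors were higher in 42 of 86 cases and lower in 21, with a median of 0.24. With total-count scaling 59 were higher and 9 lower, and without control libraries 4 and 5 there were 43 and 24. Of all genes tested 36.9% were higher and 35.1% lower, with a median of 0.03. Their shares were 52.0% and 18.7% with total-count scaling, and 38.3% and 34.7% without control libraries 4 and 5. GOLGA4, a long tether of the trans-Golgi, rose from 12.9 ± 1.88 to 70.9 ± 2.98 CPM (2.45 ± 0.10, adjusted p = 1.56e-08). APPL1, an effector of RAB5 on early endosomes, and EXOC1, a subunit of the exocyst that tethers vesicles at the plasma membrane, rose by 1.20 ± 0.09 and 1.29 ± 0.10. Rilpl2, which binds RABs phosphorylated by LRRK2, fell by 1.37 ± 0.16. EEA1, the early endosome tether that binds RAB5 and that was named after its value was seen, went from 5.48 to 41.6 CPM by group means, a log2 fold change of 2.92 ± 0.28. Other early endosome effectors of the list, also named after their values were seen, went both ways. Rabep1 was higher (1.05 ± 0.09), and RABEP2 (-0.74 ± 0.12), APPL2 (-0.44 ± 0.11) and RBSN (-0.32 ± 0.09) were lower. The share of all genes tested that were called either way was 71.9%, and it was 90.5%, 80.4%, 80.5% and 73.3% for the prenylation, exchange, activating and effector lists.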

How the data were processed

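The deposited table holds raw counts, whole numbers of reads for a gene symbol. The authors' aligner, counter and annotation, and whether strand was used, are not given in the sources here. Per the submitters' processing notes the builds named, with no role, are GRCm38 and mm10, both of the mouse, so no coordinate, length or sequence is given. All 59 RAB symbols stand in the RefSeq gene list of the mCavPor4.1 guinea pig assembly, used for names only. How reads shared by similar paralogs, overlapping genes or antisense genes were counted is not known.

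Of 18079 lines, 437 carry no symbol (0.751% to 1.69% of counts) and entered neither library sizes nor tests. Lines of a repeated symbol were tested separately, the line with the highest mean keeping the plain symbol. Genes were filtered with filterByExpr (minimum count 10, minimum total 15) and tested over all 14683 genes by the quasi-likelihood functions glmQLFit (robust) and glmQLFTest of edgeR 4.0.16, run in R 4.3.3 on TMM factors, with Benjamini-Hochberg adjustment, threshold 0.05. Standard errors are the size of the log2 fold change over the root of its F statistic. Log2 ratios of paralogs used CPM + 0.05. No pair of libraries in a group was alike within sampling noise (chi-square over degrees of freedom 18.1 to 117). Alternatives were RLE and upper quartile factors, total counts, other filters, DESeq2 1.42.0, limma-voom 3.58.1, dispersion without robust estimation, a replicate block, repeated lines summed, each library left out, and control libraries 4 and 5 left out. On simulated data of the same 14683 genes, 69.0% of 2-fold and 91.0% of 4-fold changes were recovered and 6 unchanged genes were called.

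The members, lists and alternatives were chosen with earlier results of these data known. Values in every library are given for the 6 highest and 6 lowest log2 fold changes among called members with a mean of at least 2 CPM, for subfamilies with calls in opposite directions, and for RAB1A, RAB5A, RAB6A, RAB7A, RAB8A, RAB10, RAB11A and RAB18. RAB23, Rab38 and the notes on RAB9B and RAB32 were added after their values were seen. From each regulator list at most 4 called genes are named, by smallest p and at most 3 in a direction, apart from those said above to be picked or named after their values were seen.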

Additional observations from a re-analysis of the deposited data

Results flagged for a closer look

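In 112 groups of 5 libraries (56 RAB genes, 2 groups each), 6 had a library whose distance from its nearest neighbour was over 0.71 of the group's range; chance flags about 1 in 20 such groups. RAB32 in myopia library 3 stood at 18.1 CPM, with the others at 12.7 to 14.2 CPM. Rab38 in the same library stood at 6.26 CPM, with the others at 2.18 to 3.06 CPM, and this library also had the highest summed melanocyte markers of its group (241.9 CPM). Rab19 in control library 1 stood at 0.316 CPM, below the others at 0.634 to 0.674 CPM. Rab28 in myopia library 4 stood at 21.4 CPM, below the others at 24.9 to 26.2 CPM. Rab35 in control library 5 stood at 69.7 CPM, above the others at 62.8 to 63.8 CPM. Rab3d in control library 1 stood at 83.8 CPM, above the others at 69.2 to 72.5 CPM.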

How the results depend on the processing

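Over 21 alternatives, 33 of the 42 called RAB genes kept direction and call wherever they were tested. Of these, 31 were tested in all 21, while RAB9B and Rab3c had too few reads for the stricter filter, which left 50 RAB genes. The exceptions were RAB2B among the higher genes and RAB26, RAB27A, RAB3B, Rab15, Rab33b, Rab35, Rab38 and Rab40c among the lower. With scaling by total count 15 RAB genes and 2752 of all genes were lower, and the RAB median was 0.292. That scaling also turned the sign of Rab15 (0.0624), RAB27A (0.0544), RAB2A (0.415), RAB32 (0.208), Rab33b (0.178), Rab35 (0.0955), RAB36 (0.281), RAB40B (0.303), RAB44 (0.143), RAB4A (0.396) and Rab6b (0.427). Other turned signs belong to genes that did not pass. With upper quartile factors these were RAB2A (0.0417), RAB4A (0.0192) and Rab6b (0.0556). RAB5B turned with RLE factors (-0.0189), DESeq2 (-0.0190) and no filter (-0.000473), and Rab6b with repeated lines summed (0.00677). Without control libraries 4 and 5 the RAB median was -0.0649 over 57 genes, which include RAB39A. Over the 56 genes of the main test it was -0.138 in that setting, against -0.157 with all libraries. RAB2A (0.0197) and Rab6b (0.0975) turned. Upper quartile factors also ended the calls of RAB27A, Rab33b and Rab38 (adjusted p = 0.0792, 0.0784 and 0.0552).

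When each library was left out in turn, 18 to 19 RAB genes were higher and 20 to 24 lower, with a median of -0.196 to -0.0903, and 14 to 15 pairs of paralogs did not overlap. Signs then turned only for genes that did not pass, whose values ran from -0.00357 to 0.202 for Rab19, -0.0548 to 0.0365 for RAB2A, -0.00503 to 0.0973 for RAB31, -0.0362 to 0.587 for RAB37, -0.142 to 0.0115 for RAB4A, -0.00997 to 0.0576 for RAB5B and -0.0586 to 0.0728 for Rab6b.

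The libraries share only a number across groups. With a replicate block 18 RAB genes were higher and 20 lower; same-numbered libraries had correlations of their deviations from -0.129 to 0.013, and 0 of 5 control libraries correlated best with their own number. Low read counts limit the precision of RAB9B, Rab3c, Rab8b, Rab30 and RAB39B. Apart from the scaling itself, the fewer samples and the entry of RAB39A, the cause of these shifts was not tested.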
